A study of Mus musculus with 32 samples.

Results

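The gastrocnemius of mice labelled Tgfbr1 KO was compared with the gastrocnemius of control mice. The comparison used 8 of the 32 libraries of the series, all 4 Tgfbr1 KO and all 4 control libraries of this muscle, and covered every gene measured. Both groups were transgenic mice. Tamoxifen, given when the mice were 6 weeks old, induced knockout in the myofibres, and 3 months later the gastrocnemius medialis of the left leg, a calf muscle of mainly fast fibres, was frozen whole. The labels give the genotype names Tgfbr1 KO and control only. They do not name the Cre driver, and they do not say separately whether control mice received tamoxifen. Each library came from 1 mouse with its own animal number, and the soleus of the same 8 mice was sequenced as well. Mice labelled Acvr1b KO, and mice with both receptors deleted, appear here only where a value of the Tgfbr1 KO needed a neighbour.

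Tgfbr1 (ALK5) is a type I receptor of the TGF-β family. With a type II receptor it forms the complex through which TGF-β and, in muscle, myostatin and related ligands phosphorylate SMAD2 and SMAD3, which then move to the nucleus. Acvr1b (ALK4) is the other type I receptor through which myostatin and activins act on muscle fibres, where this branch restrains fibre growth. Glucocorticoid signalling acts on the same tissue in the catabolic direction, through the glucocorticoid receptor and targets such as Klf15 and the ubiquitin ligase Trim63.

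The 8 libraries held 16535498 (Tgfbr1 KO 1) to 54456977 (Tgfbr1 KO 2) estimated counts, and levels below are CPM, counts scaled to the size of each library. The labelled tissue matched its markers: Ckm, the muscle creatine kinase, stood at 13100 to 16600 CPM, and Myh4, the myosin of the fastest fibres, at 62200 to 88700 CPM. Mitochondrially encoded transcripts took 10.35 to 25.99% of counts in controls and 10.75 to 19.27% in Tgfbr1 KO. This share did not separate the groups (exact 2-sided permutation test, p = 0.971, n = 4 per group, with 0.0286 the smallest p this design allows). Control 1, which had the 25.99%, stood apart on the first principal component of the 8 libraries, and Tgfbr1 KO 1, the shallowest, on the second. Calls that ended without 1 of these libraries are named with the results. The transgene acts in myofibres, while the RNA came from whole muscle, so other cells of the muscle keep the receptor. In such bulk samples, fewer cells of a type and less RNA per cell cannot be told apart.

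No difference in Tgfbr1 mRNA was called between the libraries labelled Tgfbr1 KO and control. Tgfbr1 (ENSMUSG00000007613, GRCm38 chromosome 4, 47353222 to 47414931) measured 34.9, 21.6, 27.5 and 20.7 CPM in control 1 to 4. In Tgfbr1 KO 1 to 4 it measured 29.7, 27.9, 28.4 and 22.3 CPM. The groups overlapped over most of their range. The log2 change was 0.05 (95% interval -0.29 to 0.39, edgeR quasi-likelihood test, adjusted p by Benjamini-Hochberg = 0.999). Counts cover all exons together, and the labels do not name the part of the gene that was deleted. The genotype label could therefore not be checked from Tgfbr1. In the soleus of these mice the log2 change was -0.12 (95% interval -0.85 to 0.60).

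Acvr1b, the receptor left in place, measured 87.7, 107, 95.3 and 101 CPM in controls and 96.9, 64, 80.6 and 70.5 CPM in Tgfbr1 KO. The lowest 3 values were Tgfbr1 KO libraries, but Tgfbr1 KO 1 lay inside the control range. The log2 change of -0.33 (SE 0.14) did not pass (edgeR, Benjamini-Hochberg adjusted p = 0.783). Of 13 measured TGF-β family receptors, 8 were above and 5 below control, and 0 passed the test. Their median log2 change was 0.02, against 0.00 over all genes tested.

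Across the genome the comparison gave few calls. Of 17536 genes tested, 30 passed an adjusted p of 0.05 (0.171%), 3 higher in Tgfbr1 KO (0.0171%) and 27 lower (0.154%). An unadjusted p under 0.05 was reached by 412 higher (2.35%) and 640 lower genes (3.65%). The called genes were unevenly placed. Within 10 Mb of the Tgfbr1 start on chromosome 4 lay 20 of them, and 6 more sat on unplaced scaffolds of the assembly. Of the 16 genes tested within 1 Mb, 1 was called, of 80 at 1 to 5 Mb 6 were, and of 76 at 5 to 10 Mb 13 were. At 10 to 20 Mb 0 of 77 were called, and over the rest of chromosome 4 0 of 816. On the other chromosomes 4 of 16453 were called (0.0243%): Klf15 and Mapk1ip1, which fell, and Cox11 and Vash2, which rose. In the plot of log2 change by distance, the called genes form a column of low values at the left of Tgfbr1, with 1 gene, Invs, above the line on its right.

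**Figure D1:**
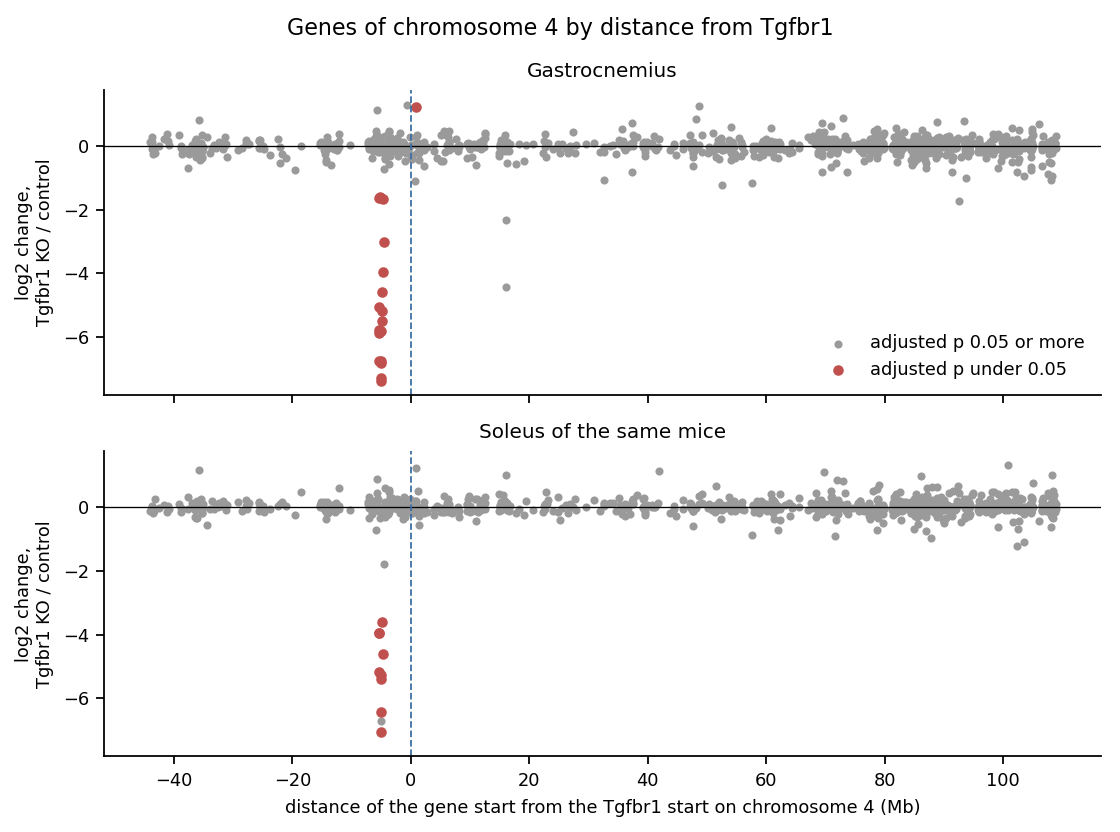
Log2 change, Tgfbr1 KO over control, of each tested gene of chromosome 4 (vertical axis) against the distance of its start from the Tgfbr1 start in Mb (horizontal axis), in gastrocnemius (top) and in the soleus of the same mice (bottom). Red points passed an adjusted p of 0.05 (edgeR). The red column in both muscles is the repeat block near Tgfbr1, and the red point above the line in gastrocnemius is Invs.

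The column of low genes, here called the repeat block, holds copies of the chemokine gene Ccl21 and other entries whose sequences were not compared. Of the tested genes that lie within its span on chromosome 4, 6 were not called: the log2 difference was -0.72 for Ccl21a (edgeR, Benjamini-Hochberg adjusted p = 0.815), -0.20 for Gm13305, -0.18 for Il11ra2, 0.17 for Gm13306, 0.26 for Gm37530 and 0.29 for Gm21955. The 25 called entries comprised 19 on chromosome 4 between 41893388 and 42856771 and 6 on scaffolds, 3 on GL456350.1, 2 on JH584293.1 and 1 on JH584294.1. By annotation 12 were protein coding, 7 were pseudogenes, 2 were antisense and 4 had no entry in the annotation used. In at least 24 of the 32 libraries each of the 25 had counts that were not whole, which means that some reads mapped to several places. The 5 entries of the Ccl21b type were Gm13304, Gm10591, Gm21541 and both identifiers named Ccl21b. Ccl21 chemokines draw dendritic cells and T cells that carry the receptor Ccr7, and lymphatic endothelium is a usual source. The copies differ so little that their reads cannot be assigned to 1 of them. Over 402 bases, the annotated transcripts of Gm13304, Gm10591 and Gm21541 were identical to Ccl21b, and Ccl21a differed at 2 bases. The RefSeq promoters of 2 copies (250 bases before to 50 after the gene start, GRCm38.p6) show the same closeness. The first is Gm13304 at chr4:42114537-42114836, + strand, and the second Ccl21a at chr4:42773942-42774241, - strand. Capitals in Ccl21a mark the 3 of 299 compared bases that differ from Gm13304.
Gm13304: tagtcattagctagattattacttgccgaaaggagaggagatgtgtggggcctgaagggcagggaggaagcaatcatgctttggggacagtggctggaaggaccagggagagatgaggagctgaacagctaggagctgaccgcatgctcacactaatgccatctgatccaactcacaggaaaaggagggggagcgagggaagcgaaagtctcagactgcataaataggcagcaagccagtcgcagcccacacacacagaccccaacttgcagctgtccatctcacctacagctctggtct
Ccl21a: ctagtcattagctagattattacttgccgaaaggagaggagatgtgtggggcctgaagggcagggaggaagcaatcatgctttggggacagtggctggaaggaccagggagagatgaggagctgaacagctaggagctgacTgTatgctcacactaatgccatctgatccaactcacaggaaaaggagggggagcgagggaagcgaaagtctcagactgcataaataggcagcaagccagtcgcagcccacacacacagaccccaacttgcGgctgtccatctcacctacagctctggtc
The promoter of Gm10591 (chr4:42611873-42612172, + strand) was identical to that of Gm13304 over all 300 bases.

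The summed level of the 25 entries was 14.2, 17.2, 16.5 and 13.3 CPM in control 1 to 4 and 1.35, 1.96, 1.75 and 1.14 CPM in Tgfbr1 KO 1 to 4. Every knockout library lay far below every control. The means were 15.3 ± 1.84 and 1.55 ± 0.373 CPM (SD, n = 4; exact 2-sided permutation test, p = 0.0286, the smallest p possible). These entries were called on the same libraries, so the sum describes them and adds no separate support.

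The 2 kinds of entry are described apart. The 20 entries not of the Ccl21b type summed to 10.1 to 12.9 CPM in control and 0.205 to 0.422 CPM in Tgfbr1 KO gastrocnemius. In soleus they summed to 8.7 ± 3.5 and 0.588 ± 0.131 CPM (SD, n = 4), again with no overlap (exact permutation test, p = 0.0286). Of the 25 entries, 17 held under 3 counts in the 4 Tgfbr1 KO gastrocnemius libraries together. The rounded counts of 5 were 0 in all 4 libraries, where the deposited fractions summed to 0.7 to 1.1 counts per entry. With those 17 set at the floor of 3 counts for the group, they were at least 13.7-fold to at least 54-fold lower. The 3 others of the 20, which were above the floor, had log2 changes of -3.95, -3.26 and -3.01. The 5 Ccl21b-type entries summed to 3.97 ± 1.01 CPM in control and 1.23 ± 0.349 CPM in Tgfbr1 KO gastrocnemius, with log2 changes of -1.66 to -1.61 per entry. These 5 calls were less firm. All 5 missed the threshold without control 2, without control 3, without any 1 of the 4 Tgfbr1 KO libraries, without control 1 and Tgfbr1 KO 1 together, and with the compared groups fitted alone. The scaffold copy of Ccl21b also missed it without control 4, and the adjusted p of Gm13304 reached 0.22 (edgeR, Benjamini-Hochberg) without Tgfbr1 KO 4. In soleus they did not separate, at 4.19 ± 1.26 and 3.79 ± 1.58 CPM (exact permutation test, p = 0.771, n = 4). Among other genotypes of gastrocnemius, the 25 entries summed to 6.95 to 12.8 CPM in Acvr1b KO and 1.31 to 3.04 CPM in the double knockout. All Acvr1b KO libraries were thus also below all controls, and above all Tgfbr1 KO libraries. The plot of summed levels shows the 20 entries near 0 in both genotypes that carry the Tgfbr1 deletion and in both muscles. Whether the low values reflect loss of the receptor or the chromosome around the targeted allele cannot be told apart in this design.

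**Figure D2:**
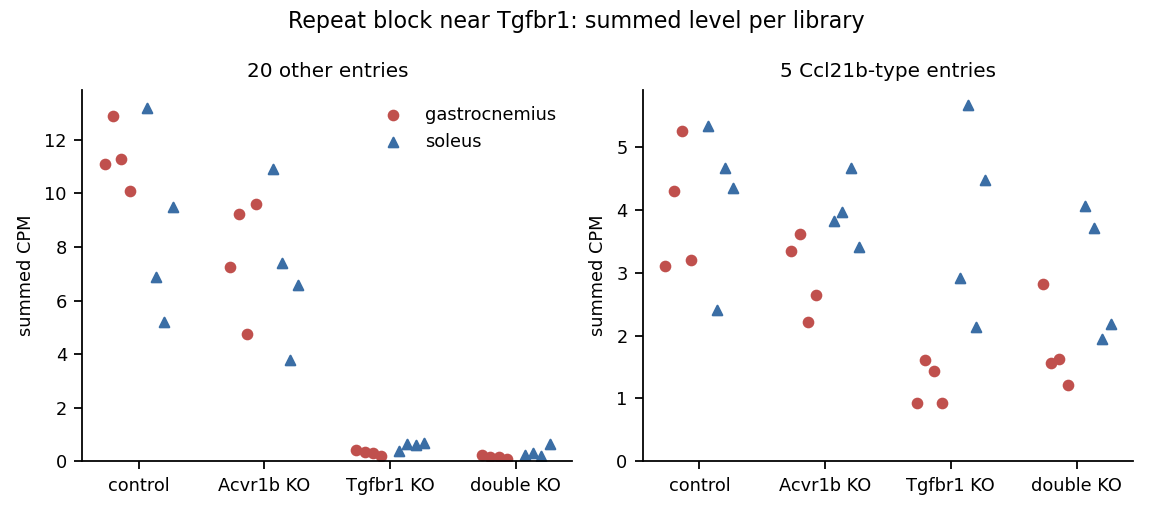
Summed CPM per library (vertical axis) of the 20 other entries (left) and the 5 Ccl21b-type entries (right) of the repeat block, for each genotype (horizontal axis), with circles for gastrocnemius and triangles for soleus. The 20 entries lie between 0.205 and 0.422 CPM in Tgfbr1 KO gastrocnemius against 10.1 to 12.9 CPM in control, while the Ccl21b-type entries overlap between control and Tgfbr1 KO in soleus.

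Invs rose, and it is the called gene nearest to Tgfbr1. Invs encodes inversin, a protein of the primary cilium that takes part in left-right patterning and Wnt signalling. It lies on the same chromosome at 48279760 to 48431954, 0.927 Mb from the Tgfbr1 start. Controls measured 2.23, 1.59, 1.89 and 1.33 CPM and Tgfbr1 KO 5.24, 3.99, 3.68 and 3.68 CPM. All 4 knockout libraries exceeded all 4 controls, and the means were 1.76 ± 0.39 and 4.15 ± 0.742 CPM (SD, n = 4). The log2 change was 1.22 (SE 0.16, edgeR quasi-likelihood test, adjusted p by Benjamini-Hochberg = 0.001). In soleus the levels were 1.11, 0.65, 1.5 and 0.901 CPM in control and 3.04, 2.24, 1.69 and 2.82 CPM in Tgfbr1 KO, also without overlap. Its log2 change there was 1.23 (SE 0.23), with an edgeR Benjamini-Hochberg adjusted p of 0.118. Invs measured 1.48 ± 0.178 CPM in Acvr1b KO and 4.35 ± 0.451 CPM in double knockout gastrocnemius. It was higher in Tgfbr1 KO than in Acvr1b KO by 1.46 log2 units (edgeR, Benjamini-Hochberg adjusted p = 2.89e-04).

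The other 15 genes tested within 1 Mb of Tgfbr1 did not pass. Tbc1d2, a Rab GTPase-activating protein whose start is 0.703 Mb on the other side, measured 0.347, 0.302, 0.237 and 0.419 CPM in controls and 0.609, 1.21, 0.68 and 0.65 CPM in Tgfbr1 KO. The groups did not overlap at these low levels, and the log2 change was 1.29 (SE 0.34, edgeR, Benjamini-Hochberg adjusted p = 0.32). Alg2, an enzyme of N-glycan assembly next to Tgfbr1, measured 11.9 to 13.3 CPM in controls and 9.05 to 11 CPM in knockouts, a log2 difference of -0.29 (unadjusted p = 0.00515). The median over the 16 genes was -0.10.

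Klf15 fell by 0.67 on the log2 scale (SE 0.13; edgeR quasi-likelihood test, adjusted p by Benjamini-Hochberg = 0.0433). Klf15 is a Krüppel-like transcription factor that glucocorticoids induce in muscle and that drives the breakdown of branched-chain amino acids and the use of lipid. The gene lies on GRCm38 chromosome 6, 90462576 to 90475238. It measured 56.8, 77.2, 65.2 and 71.8 CPM in control 1 to 4 and 51.2, 39.7, 43.2 and 36.1 CPM in Tgfbr1 KO 1 to 4. Each knockout library was below each control, with the narrowest gap between Tgfbr1 KO 1 and control 1. The means were 67.7 ± 8.79 and 42.6 ± 6.46 CPM (SD, n = 4). In soleus Klf15 measured 87.5, 95.9, 77.7 and 100 CPM in control and 69.7, 65.8, 65.8 and 49.8 CPM in Tgfbr1 KO. Those groups did not overlap either, and the log2 change was -0.53 (SE 0.12), which did not pass over all genes (edgeR, Benjamini-Hochberg adjusted p = 0.433). Double knockout gastrocnemius held 40.1 ± 6.44 CPM and Acvr1b KO 60.5 ± 6.7 CPM. Tgfbr1 KO and Acvr1b KO differed by -0.51 log2 units (95% interval -0.78 to -0.24), which did not pass (edgeR, Benjamini-Hochberg adjusted p = 0.265).

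The Klf15 promoter is shown because Klf15 was the called gene with the highest level outside the block. RefSeq places it at chr6:90462326-90462625, + strand, GRCm38.p6, and capitals mark the E-box CACGTG, a hexamer bound by basic helix-loop-helix factors, among them those of the circadian clock.
Klf15: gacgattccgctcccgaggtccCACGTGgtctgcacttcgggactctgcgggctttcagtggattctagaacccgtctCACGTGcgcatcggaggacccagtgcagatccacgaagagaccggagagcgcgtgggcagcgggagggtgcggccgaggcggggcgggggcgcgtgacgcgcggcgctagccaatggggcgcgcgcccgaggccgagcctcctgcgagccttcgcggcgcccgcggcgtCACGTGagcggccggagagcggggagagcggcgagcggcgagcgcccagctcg
The window held 3 such hexamers, at -228, -172 and -3 from the start. CACGTG, which reads the same on both strands, occurred in 7.15% of all 32851 promoters of this length. A match describes letters, not a bound site. The GC-rich SMAD motif GGCGCC also matched in this window (11.9% of all promoters), and the double SMAD motif GTCTAGAC did not (0.213% of all promoters).

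The other 3 calls were smaller in level or in change. Mapk1ip1 (chromosome 7, 138835823 to 138846273) measured 32.9, 42.1, 36.3 and 38.5 CPM in controls and 29.3, 27, 25.6 and 22.6 CPM in Tgfbr1 KO. The groups did not overlap, and Mapk1ip1 fell by 0.52 on the log2 scale (SE 0.09, edgeR, Benjamini-Hochberg adjusted p = 0.0273). It stood at 27.1 ± 1.29 CPM in Acvr1b KO and 18.9 ± 1.74 CPM in the double knockout, and was lower in the double knockout than in Tgfbr1 KO by 0.47 log2 units (edgeR contrast -0.47, Benjamini-Hochberg adjusted p = 0.00382). In soleus Mapk1ip1 measured 22.8, 23.2, 23.7 and 26.1 CPM in control and 21.5, 22.5, 19.5 and 19 CPM in Tgfbr1 KO. Those groups narrowly missed overlap, as did 1.83% of all soleus genes on the lower side. The log2 change there was -0.22 (95% interval -0.47 to 0.04) and did not pass.

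Cox11, a copper chaperone needed to build cytochrome c oxidase (chromosome 11, 90638173 to 90644931), measured 9.52, 11, 11 and 10.4 CPM in controls. In Tgfbr1 KO it measured 15, 14.3, 14.3 and 14.4 CPM. The knockout libraries were tightly grouped above all controls, and Cox11 rose by 0.47 log2 units (SE 0.08, edgeR, Benjamini-Hochberg adjusted p = 0.0237). In soleus the levels were 8.86 ± 0.745 and 9.82 ± 0.656 CPM (SD, n = 4), a log2 change of 0.15 (95% interval -0.17 to 0.47). Vash2, vasohibin-2, an enzyme that removes the last tyrosine of α-tubulin (chromosome 1, 190947646 to 190979296), measured 0.843, 0.629, 0.575 and 0.489 CPM in controls and 1.22, 1.13, 1.57 and 1.48 CPM in Tgfbr1 KO. This rise of 1.08 log2 units (SE 0.21, edgeR, Benjamini-Hochberg adjusted p = 0.0433) rested on 97 counts in controls and 189 in knockouts. Vash2 reached 3.46 ± 0.545 CPM in the double knockout, above Tgfbr1 KO by 1.35 log2 units (edgeR, Benjamini-Hochberg adjusted p = 1.31e-04), while Acvr1b KO was at 0.59 ± 0.131 CPM. Its soleus libraries overlapped.

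**Figure D3:**
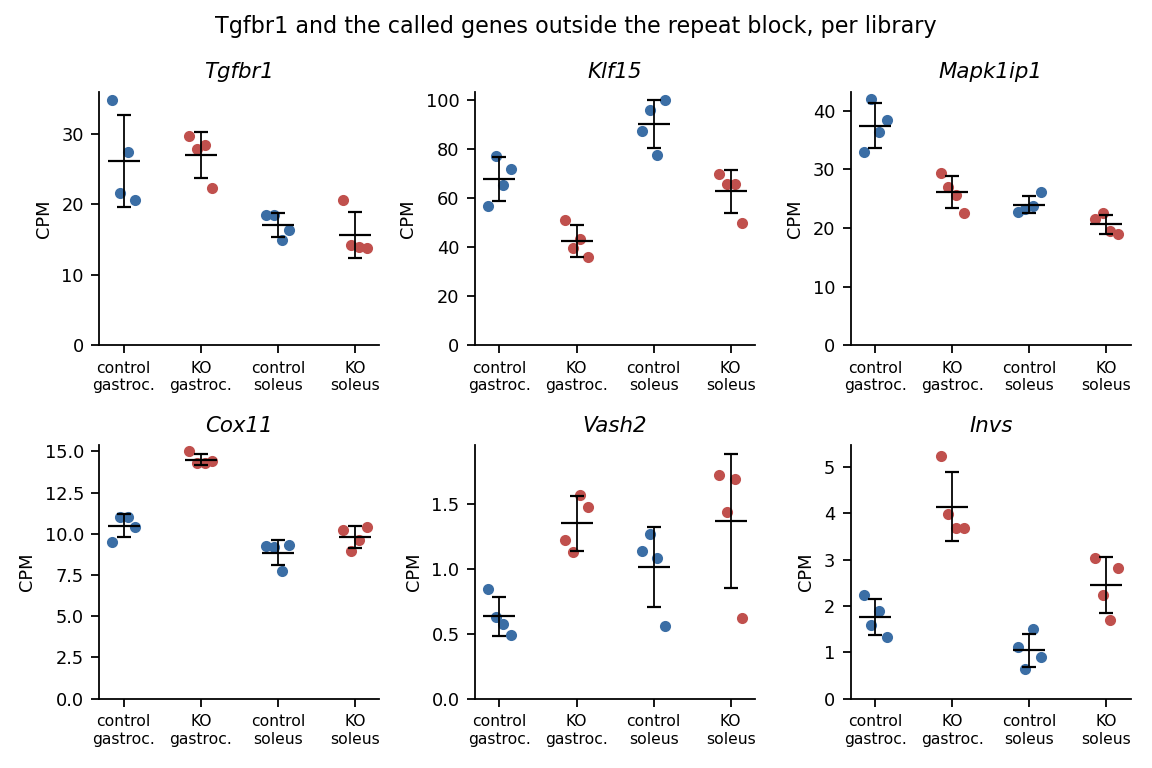
CPM per library (vertical axes) of Tgfbr1 and of the 5 called genes outside the repeat block, in control and Tgfbr1 KO (KO) gastrocnemius (gastroc.) and soleus, with the bar at the mean and whiskers of 1 SD over 4 libraries. Tgfbr1 overlaps between genotypes, while for the other 5 genes every knockout gastrocnemius library lies on 1 side of every control.

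The 4 calls away from chromosome 4 did not hold in every fit. Klf15 kept an adjusted p under 0.05 without control 1 (0.0177), without Tgfbr1 KO 1 (0.0238) and without both (0.00734), and lost it without any other library (edgeR, Benjamini-Hochberg adjusted p = 0.0969 to 0.23). Of the 8 fits that left out 1 library, Klf15 and Mapk1ip1 lost it in 6 and Cox11 and Vash2 in 7. Without Tgfbr1 KO 1, Cox11 was at 0.0677 and Vash2 at 0.0634, and without control 1 all 4 kept it. With the compared groups fitted alone all 4 lost it (edgeR, Benjamini-Hochberg adjusted p = 0.142 for Klf15, 0.163 for Cox11, 0.226 for Mapk1ip1 and 0.165 for Vash2). Klf15 was at 0.0519 with mitochondrially encoded genes left out. With the genes near Tgfbr1 and Acvr1b and those on scaffolds left out before adjustment, 0 genes were called, with Klf15, Cox11, Mapk1ip1 and Vash2 each at an adjusted p of 0.234 and 989 genes at an unadjusted p under 0.05. Invs stayed under 0.05 in every alternative that tested it.

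Beyond Klf15, the glucocorticoid-responsive genes were low as a group in Tgfbr1 KO gastrocnemius. Of 24 genes listed 23 were measured, and all 23 had a level below control, where 49.9% of all tested genes did. Klf15 was the 1 member that passed the test. An unadjusted p under 0.05 was reached by 10 members (43.5%, against 3.65% of all genes), and 8 members had no overlap between groups (34.8%, against 2.33%, with 1.33% of all genes separated on the higher side). The median log2 change was -0.30. The list was chosen with Klf15 already known to fall here, so its count is a description. The list score, the mean log2 CPM of the members minus the control mean, was -0.11, 0.11, 0.00 and -0.01 in control 1 to 4. In Tgfbr1 KO 1 to 4 it was -0.33, -0.58, -0.39 and -0.70, so every knockout library was below every control.

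The metallothioneins were lowest in ratio. Mt1, which binds zinc and copper and is induced by metals and glucocorticoids, measured 52.1, 80.5, 64.5 and 65.5 CPM in controls and 23.7, 29.4, 27.9 and 23.6 CPM in Tgfbr1 KO. Its neighbour Mt2 measured 38.2, 73.7, 54.9 and 59 CPM in controls and 24.5, 26, 23.4 and 18.5 CPM in knockouts. Neither gene had overlapping groups, and both differences, -1.32 (SE 0.34) and -1.29 log2 units, missed the threshold (edgeR, Benjamini-Hochberg adjusted p = 0.294 and 0.406). With the 8 compared libraries fitted alone, Mt1 and Mt2 were both called.

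Growth-restraining members followed. Sesn1, sestrin 1, which inhibits mTORC1, measured 51.8, 57.6, 60.3 and 58.3 CPM in controls and 35.5, 27.5, 35.5 and 21.5 CPM in Tgfbr1 KO, with no overlap (log2 difference -0.93, unadjusted p = 0.00204). Errfi1, a feedback inhibitor of the EGF receptor, measured 95.2, 97.3, 134 and 92.6 CPM against 78.5, 41, 65.3 and 35.1 CPM. Ddit4 (REDD1), another mTORC1 inhibitor, measured 148, 243, 189 and 208 CPM against 160, 33.7, 87.1 and 53.4 CPM. Sesn1 and Errfi1 separated the groups, while Ddit4 did not: Tgfbr1 KO 1 lay among the controls, and the other knockout libraries lay below all of them. Tgfbr1 KO 1 was also the highest of the 4 knockout libraries for Klf15, Errfi1, Fkbp5 and Cebpd.

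Of the classical receptor targets, Fkbp5, a co-chaperone of the glucocorticoid receptor, measured 184, 265, 182 and 266 CPM in controls and 162, 146, 145 and 144 CPM in Tgfbr1 KO (log2 difference -0.59). Trim63 (MuRF1), a ubiquitin ligase of myofibrillar proteins, measured 1620, 1490, 1330 and 1340 CPM against 872, 959, 1030 and 706 CPM (log2 difference -0.70, unadjusted p = 0.0745). Both separated the groups and neither passed. Other members had smaller differences: the log2 difference was -0.13 for Tsc22d3 (GILZ), -0.08 for Klf9, -0.08 for Pdk4 and -0.25 for Fbxo32, the ubiquitin ligase atrogin-1. The list thus held strongly and weakly shifted members, from -1.32 for Mt1 to -0.04 for Gadd45a.

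In the soleus of the same mice 22 of 23 members were below control, 8 at an unadjusted p under 0.05 (34.8%, against 1.16% of all genes tested in soleus and 1.1% on the higher side) and 9 lower without overlap (1.83% of all genes, and 1.3% on the higher side), with a median log2 change of -0.40. None passed the adjusted threshold. Mt1 stood at -0.98, Errfi1 at -1.08, Trim63 at -0.74, Sgk1 at -0.68 and Sesn1 at -0.63. The muscles came from the same mice, so they are 2 samples of 4 animals per genotype. In gastrocnemius the list median was -0.20 in Acvr1b KO and -0.76 in the double knockout, where 13 members fell and 1, Gadd45a, rose. Of all genes 9.59% fell and 11.4% rose in the double knockout (20.9% in all). These comparisons share the control libraries. Set directly against Acvr1b KO, 18 of 23 members were lower in Tgfbr1 KO, with a median of -0.18. In the plot of members, the gastrocnemius values run along the left of the line, with the soleus values beside them.

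**Figure D4:**
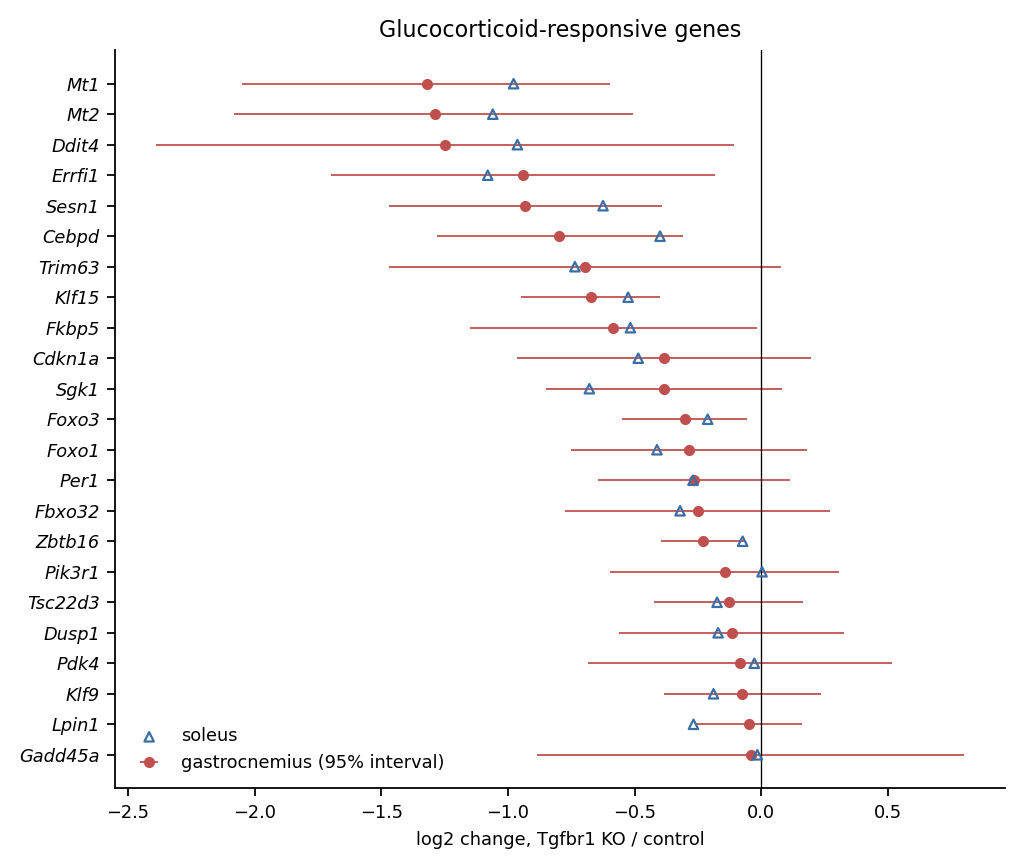
Log2 change, Tgfbr1 KO over control (horizontal axis), of the 23 measured glucocorticoid-responsive genes, as red points with 95% intervals for gastrocnemius and blue triangles for the soleus of the same mice. All 23 gastrocnemius points lie below 0, from -1.32 for Mt1 to -0.04 for Gadd45a, and 22 of 23 soleus points do.

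Promoters of 3 members held the palindromic glucocorticoid response element (GNACA, 3 free bases, TGTNC), which reads alike on both strands. They are printed to show where the element stands in each. Mt1 is at chr8:94178839-94179138, Trim63 at chr4:134314870-134315169 and Sgk1, a kinase that glucocorticoids induce, at chr10:21993640-21993939, all + strand, RefSeq, GRCm38.p6. Capitals mark the element.
Mt1: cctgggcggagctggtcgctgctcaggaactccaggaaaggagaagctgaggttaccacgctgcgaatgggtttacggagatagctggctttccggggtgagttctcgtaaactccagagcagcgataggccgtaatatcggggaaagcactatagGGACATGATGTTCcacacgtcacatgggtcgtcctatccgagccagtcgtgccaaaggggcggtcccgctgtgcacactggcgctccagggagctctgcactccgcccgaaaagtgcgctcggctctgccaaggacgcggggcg
Trim63: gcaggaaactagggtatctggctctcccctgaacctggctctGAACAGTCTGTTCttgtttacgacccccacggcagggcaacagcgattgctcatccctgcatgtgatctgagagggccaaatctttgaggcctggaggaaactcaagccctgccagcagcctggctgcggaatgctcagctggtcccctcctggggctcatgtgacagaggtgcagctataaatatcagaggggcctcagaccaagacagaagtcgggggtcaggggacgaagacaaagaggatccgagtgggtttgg
Sgk1: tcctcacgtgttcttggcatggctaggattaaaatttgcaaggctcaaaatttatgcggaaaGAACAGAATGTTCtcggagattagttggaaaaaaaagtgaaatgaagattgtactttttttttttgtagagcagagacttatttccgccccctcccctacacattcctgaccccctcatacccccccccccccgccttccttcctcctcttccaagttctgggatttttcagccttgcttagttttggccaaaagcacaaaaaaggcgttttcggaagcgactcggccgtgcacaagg
The element starts at -94 in Mt1, -208 in Trim63 and -188 in Sgk1. It matched 3 of 33 promoters of the 21 list genes in the table (9.09%) and 156 of 32851 promoters in all (0.475%). Sgk1 measured 364, 406, 362 and 342 CPM in controls and 346, 281, 260 and 242 CPM in Tgfbr1 KO, with Tgfbr1 KO 1 inside the control range. The motif was not in the Klf15 window.

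The immediate early genes, which respond within minutes to contraction, growth factors and tissue handling, were also mostly below control. Of 26 members 22 were lower (84.6%, against 49.9% of all genes) and 4 higher, 0 passed, and the median log2 change was -0.31. Zfp36, an mRNA-destabilising protein, measured 48.7, 54.8, 78.6 and 51.6 CPM in controls and 47.8, 17.2, 31.5 and 20.8 CPM in Tgfbr1 KO (log2 difference -1.01, unadjusted p = 0.00155). Maff measured 23.9, 28.5, 29.4 and 25.2 CPM against 18.5, 15.6, 21.6 and 15.6 CPM (-0.59). Jun measured 82.1 to 89.6 CPM against 44.6 to 74.5 CPM. These 3 were the members without overlap, all lower (11.5%, against 2.33% of all genes lower and 1.33% higher). Nr4a2 was higher, at 1.94 to 2.45 CPM in controls and 2.26 to 5.29 CPM in knockouts (0.70). In soleus 20 of 26 were lower, with a median of -0.22. In Acvr1b KO gastrocnemius 23 of 26 were below the same controls, with a median of -0.30. Set directly against Acvr1b KO, 14 of 26 were lower in Tgfbr1 KO gastrocnemius, with a median of -0.04. Dissection time was not given in the labels, and its part in these values was not tested.

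No member of the SMAD pathway lists was called. Of 20 SMAD2/3-responsive genes 12 were above and 8 below control with 0 passing, and their median log2 change was 0.05. Smad7, the inhibitory SMAD that the pathway induces, measured 2.28 to 3.52 CPM in controls and 2.57 to 3.11 CPM in Tgfbr1 KO. Pmepa1, another negative feedback gene, measured 15.8 to 23.9 against 15.9 to 19.7 CPM. Both ranges overlapped.

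Among the 15 measured ligands, 9 were higher, 6 lower and 0 passed. Tgfb1 measured 3.32, 3.6, 3.04 and 3.5 CPM in controls and 5.67, 4.05, 3.76 and 4.06 CPM in Tgfbr1 KO (log2 difference 0.36, unadjusted p = 0.00907). Tgfb3 measured 42.4, 40, 45.1 and 41.2 CPM against 36.4, 33.7, 34.8 and 33.9 CPM (-0.28, unadjusted p = 0.00494). Without overlap, Tgfb1 was higher and Tgfb3 lower, each 1 of 15 ligands (6.67%). Of all genes 1.33% were higher and 2.33% lower without overlap. The 2 were named because they had the smallest p of this list, and neither passed. Myostatin (Mstn) measured 84.5 to 126 CPM in controls and 70.1 to 95.3 CPM in knockouts, with overlap (-0.22, 95% interval -0.56 to 0.11). Of 16 antagonists and latency proteins 9 were higher and 7 lower. Lrrc32 (GARP), which holds latent TGF-β at the cell surface, measured 12.8, 15.4, 10.7 and 15.8 CPM against 16.8, 22.5, 19.6 and 18.3 CPM (0.49, edgeR, Benjamini-Hochberg adjusted p = 0.427). Of 11 BMP-responsive genes 8 were higher, with a median of 0.25 and 0 passing.

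No member of the contractile or ribosomal lists was called. Of 18 fast-fibre contractile genes 3 were higher and 15 lower, with a median log2 change of -0.05. Of 18 slow-fibre genes 3 were higher and 15 lower, with a median of -0.24, and 0 passed in either list. Myh7, the slow myosin, measured 841, 632, 587 and 936 CPM in controls and 509, 585, 709 and 666 CPM in Tgfbr1 KO, with overlap. Ankrd2, a stretch-responsive ankyrin-repeat protein of slow fibres, measured 123, 210, 157 and 189 CPM against 97.2, 114, 118 and 92.2 CPM, without overlap (-0.69, edgeR, Benjamini-Hochberg adjusted p = 0.367). Cytosolic ribosomal protein genes were below control in 56 of 58 cases (96.6%, against 49.9% of all genes) by small amounts (median -0.11, 0 passing). Without overlap 7 were lower (12.1%, against 2.33% of all genes lower and 1.33% higher). Rps23, among these 7, measured 47.6 to 50.9 CPM against 38 to 45.6 CPM. In soleus 56 of 58 were below control (median -0.09). In Acvr1b KO gastrocnemius 30 of 58 were (median -0.002).

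Around Cox11, 19 of 21 cytochrome c oxidase assembly factors, Cox11 among them, were above control, with a median log2 change of 0.06. Of all 17536 genes tested, 8788 were above control. In soleus 10 of the 21 were below control, with a median of 0.01. In gastrocnemius Coa5 measured 126 to 131 CPM in controls and 146 to 158 CPM in Tgfbr1 KO. Cox15, which makes haem A, measured 21.7 to 23.5 against 23.9 to 28.3 CPM. Both were without overlap and neither passed. Of the 13 subunits of the enzyme itself 4 were higher and 9 lower (median -0.05). Of the 20 genes listed for metabolism linked to Klf15, 12 were higher and 8 lower (median 0.01), with Klf15 as the member that fell. The circadian clock genes gave 10 higher and 9 lower of 19 (median 0.06). Of 18 ubiquitin ligases tied to atrophy 10 were higher and 8 lower (median 0.05), and Trim63 was the lowest of them.

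In the growth pathway downstream of insulin and IGF, 13 of 33 genes were higher and 20 lower, 0 passed and the median was -0.02. Among genes next in rank after the calls, Pik3ip1, an inhibitor of PI3-kinase, measured 44.4, 45.9, 36.1 and 39.7 CPM in controls and 35.1, 30.3, 26 and 27.6 CPM in Tgfbr1 KO (log2 difference -0.48, edgeR, Benjamini-Hochberg adjusted p = 0.12). Pik3r3, a regulatory subunit of that kinase, measured 4.58, 3.78, 4.16 and 3.85 CPM against 5.36, 6.01, 5.29 and 5.65 CPM (0.45, adjusted p = 0.127 by edgeR with Benjamini-Hochberg). Pfkfb3, an activator of glycolysis, measured 222, 190, 438 and 223 CPM against 173, 150, 174 and 64.2 CPM (-0.94, unadjusted p = 0.00769). All 3 separated the groups, the inhibitor and the glycolytic activator lower and the kinase subunit higher. Over all genes 2.33% separated lower and 1.33% higher. Pik3ip1 and Pik3r3 were chosen among genes without overlap, so their separation was fixed by the choice.

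Several other genes stopped just short of the threshold. Tcap (telethonin), which caps titin at the Z-disc, measured 1760, 2200, 1750 and 1950 CPM in controls and 1450, 1440, 1300 and 1390 CPM in Tgfbr1 KO (log2 difference -0.46, SE 0.09, edgeR, Benjamini-Hochberg adjusted p = 0.0561). Apbb3, an adaptor that binds the amyloid precursor protein, measured 27.9, 53.9, 35.5 and 54.6 CPM against 27.2, 19, 19.5 and 14.3 CPM (-1.12, edgeR, Benjamini-Hochberg adjusted p = 0.0513). Tppp, a tubulin polymerisation protein, measured 8.53 to 11.9 CPM against 6.38 to 7.06 CPM (-0.64, edgeR, Benjamini-Hochberg adjusted p = 0.0527). None of the 3 overlapped between groups, although Tgfbr1 KO 1 and control 1 nearly met for Apbb3. The 3 were chosen among genes without overlap, so this separation was fixed by the choice. DESeq2, with 57 calls, called all 3. Hbegf, an EGF-receptor ligand, measured 34.7, 32.8, 35.9 and 39.4 CPM against 23, 17.4, 28.9 and 18.3 CPM (-0.71). On the higher side, Arhgef2, a microtubule-bound activator of RhoA, measured 9.77 to 10.9 CPM in controls and 12.6 to 14.4 CPM in knockouts (0.39, edgeR, Benjamini-Hochberg adjusted p = 0.0939), and Bace1, the β-secretase, 34.3 to 36.8 against 41.5 to 49.5 CPM (0.36).

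Some of these genes were set beside the other genotypes. The log2 change against the same controls was 0.39 in Tgfbr1 KO, 0.33 in Acvr1b KO and 1.25 in the double knockout for Arhgef2. For Bace1 the values were 0.36, 0.13 and 1.24, and for Hbegf -0.71, -0.78 and -1.86. For Tppp the order was different, at -0.64, -0.44 and 0.59. Tested against Tgfbr1 KO, the double knockout differed by 0.86 log2 units at Arhgef2 (adjusted p = 4.90e-06), 0.88 log2 units at Bace1 (adjusted p = 5.62e-05), -1.15 log2 units at Hbegf (adjusted p = 1.44e-04) and 1.23 at Tppp (adjusted p = 8.86e-06), all by edgeR with Benjamini-Hochberg adjustment. Across all genes, the double knockout differed from Tgfbr1 KO at 2255 genes (12.9%). Of these, 1304 were higher (7.44%) and 951 lower (5.42%) in the double knockout. Tgfbr1 KO differed from Acvr1b KO at 31 (0.177%), 7 higher (0.0399%) and 24 lower (0.137%) in Tgfbr1 KO. The 24 included all 20 entries of the repeat block that are not of the Ccl21b type, whose counts are not separate cases. Acvr1b KO gave 5 calls against control (0.0285%), 2 higher (0.0114%) and 3 lower (0.0171%).

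Among marker lists of other cells, the neutrophil scores separated the groups. All 7 neutrophil markers measured were lower in Tgfbr1 KO gastrocnemius (median log2 change -0.83), and their summed level was 7.73, 11.05, 9.27 and 16.64 CPM in controls and 2.62, 4.69, 4.51 and 4.69 CPM in knockouts, without overlap. Lcn2, a secreted siderophore-binding protein of neutrophils that inflammation also induces elsewhere, measured 2.83, 6.52, 4.03 and 10.1 CPM against 1.77, 1.08, 1.47 and 1.01 CPM (-2.22, edgeR, Benjamini-Hochberg adjusted p = 0.353). Its soleus difference was -2.23. S100a9 measured 1.54, 2.09, 2.2 and 2.38 CPM against 0.244, 1.27, 1 and 1.26 CPM, and Mmp8 was at 0 in Tgfbr1 KO 1. In soleus the neutrophil median was -0.70.

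Of 11 adipocyte markers 9 were lower (median -0.97), led by the lipid-droplet gene Cidec, at 2.58, 2.74, 5.41 and 2.49 CPM in controls and 0.426, 2.09, 1.04 and 0.404 CPM in Tgfbr1 KO. In soleus the median of this list was 0.43, the other sign. Its summed level, mostly Car3, which muscle also makes, overlapped at 850 to 1693 and 983.6 to 1157 CPM. All 6 erythrocyte markers were lower (median -0.37), with overlapping sums of 236.3 to 645.2 and 274 to 429 CPM, and the median was -0.11 without control 1. No member of the 3 lists passed. Macrophage, fibroblast, tendon and endothelial medians lay between -0.01 and 0.07. Of 10 Schwann cell and myelin markers 8 were lower, with a median of -0.14 in gastrocnemius and 0.62 in soleus. The part of these cells in the low glucocorticoid-responsive and immediate early values was not tested. In the plot of list scores the glucocorticoid, immediate early and neutrophil scores separate the groups. The immediate early scores do so narrowly, with -0.159 in Tgfbr1 KO 3 and -0.131 in control 4. The ribosomal, slow-fibre, adipocyte and erythrocyte scores overlap.

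**Figure D5:**
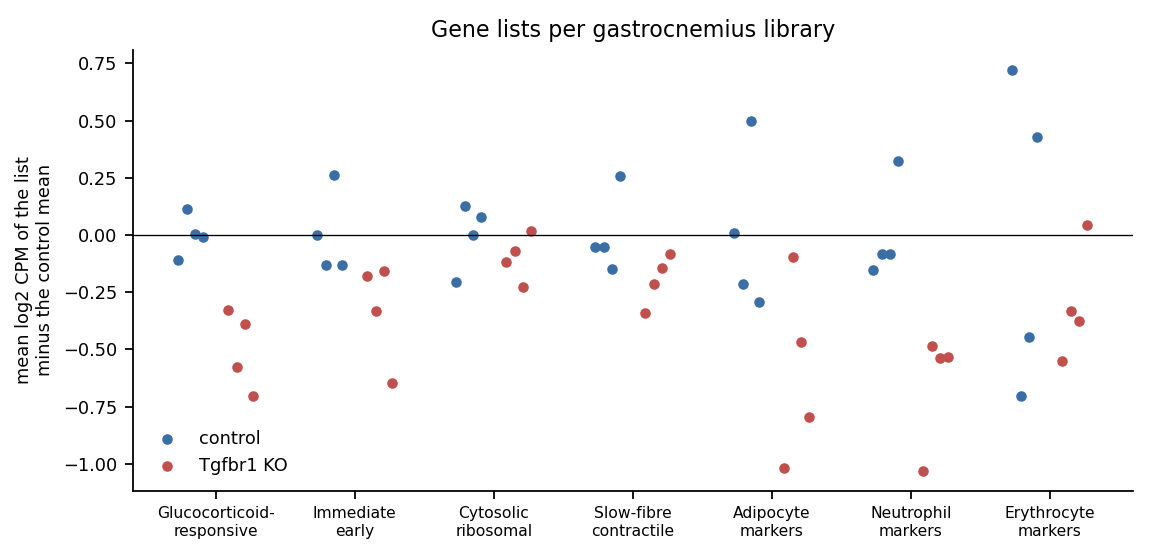
Score of 7 gene lists in each gastrocnemius library, as the mean log2 CPM of the members minus the control mean (vertical axis), with control in blue and Tgfbr1 KO in red. The glucocorticoid-responsive scores run from -0.11 to 0.11 in controls and from -0.70 to -0.33 in Tgfbr1 KO, while the erythrocyte scores of the 2 groups overlap.

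The effects in the 2 muscles were compared directly. Soleus gave 9 calls of 18143 genes (0.0496%), all lower in Tgfbr1 KO and all in the repeat block near Tgfbr1. Leaving out 1 soleus library moved that count to 15 (without control 3), 10 (without control 2) or 6 (without Tgfbr1 KO 1). It was 5 without control 1, control 4, Tgfbr1 KO 2 or Tgfbr1 KO 3, and 4 without Tgfbr1 KO 4. The 9 soleus calls made up 30% of the gastrocnemius calls and 100% of the soleus calls. All 23 gastrocnemius calls tested in soleus had the same sign there. Of these, 18 were entries of the repeat block, whose counts are not separate cases. The 5 Ccl21b-type entries among them had soleus log2 changes of only -0.23 to -0.12. The difference of the Tgfbr1 KO effect between muscles was called for 0 of 18726 genes by edgeR, with 257 at an unadjusted p under 0.05. With the animal as a block, since both muscles came from the same mice, 0 were called and 429 had an unadjusted p under 0.05. Without the block, that difference for Klf15 was 0.15 log2 units (95% interval -0.21 to 0.51), for Cox11 -0.32 (-0.68 to 0.04) and for Mapk1ip1 0.31 (0.01 to 0.61). With the block the values were 0.14 (SE 0.14), -0.32 (SE 0.17) and 0.30 (SE 0.13). For the 5 Ccl21b-type entries, which share reads and were picked by their gastrocnemius call, the difference without the block was 1.44 to 1.54 log2 units. Each of their 95% intervals lay above 0, and none was called. Intervals of this width do not show that the muscles responded alike.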

How the data were processed

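PolyA RNA of whole muscle was sequenced, with 4 libraries per group. The authors deposited 1 table of estimated counts per gene, made with featureCounts 2.0.1 on reverse-stranded reads (setting 2) with multi-mapping reads shared as fractions and Ensembl 102 gene models, per the file headers. The submitters' processing notes name cutadapt, HISAT2, FastQC 0.11.9, DESeq2 and the build GRCm38.p6. The estimated counts were rounded. Of 55487 identifiers, 55227 were given symbols from GENCODE M21.

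Genes were kept by edgeR's filterByExpr, libraries were scaled by TMM, and all 16 gastrocnemius libraries entered 1 quasi-likelihood fit (edgeR 4.0.16, R 4.3.3, 2-sided) with a mean per genotype and 12 residual degrees of freedom. Soleus was fitted in the same way, and both muscles together for the difference of effects. P-values were adjusted over all genes of a fit (Benjamini-Hochberg, threshold 0.05). An SE is the log2 change over the square root of the F statistic. The scripts were tested on simulated data. Depth sets the precision of low genes, and a floor of 3 counts was used for folds.

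The members and the 44 gene lists were chosen with earlier results of these data known. Named genes were a fixed set (Tgfbr1, Acvr1b, Tgfbr2, Acvr2b, Mstn, Inhba, Smad7, Pmepa1, 4 myosins, Klf15, Cox11 and Mapk1ip1), every called gene, with predicted ones as counts and up to 8 by name, and the 12 higher and 12 lower uncalled genes with the smallest p among those with at least 5 CPM and no overlap. Up to 4 members of each list with the smallest p followed. Other members and neighbours of Tgfbr1 were named after their values were seen. Alternatives were DESeq2 1.42.0, size factors by relative log expression, no count filter, a replicate block, the compared groups alone, leaving out each library, leaving out genes near the targets, leaving out mitochondrial genes, and leaving out control 1 and Tgfbr1 KO 1 together. Promoters came from the RefSeq table of GRCm38.p6, which held no entry for Zbtb16, Cebpd, Fbxo32 and Mapk1ip1.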

Additional observations from a re-analysis of the deposited data

Results flagged for a closer look

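Of 124 groups of 4 libraries tested for a lone outlying value (Dixon's test at the 95% level), 7 held one, and chance gives about 1 in 20. Control 1 accounted for 3 of them. Its Inhba level was 1.91 CPM against 1.19 to 1.29 in the other controls, its Myh4 level was 88700 CPM against 64800 to 66900, and its tendon marker score was -0.285 against 0.0762 to 0.114. These values rest on its TMM factor of 0.7416, against 1.006 to 1.027 in the other controls. Levels without that factor were not tested for outliers. Control 3 had a fast-fibre contractile score of -0.149, where the other controls had 0.036 to 0.0706. The neutrophil marker score held an outlying library in both groups: control 4 stood at 0.321 with the other controls between -0.153 and -0.0834, and Tgfbr1 KO 1 stood at -1.03 with the other knockouts between -0.538 and -0.484. Cox11 was 15 CPM in Tgfbr1 KO 1 and 14.3 to 14.4 CPM in the other knockouts, a gap that stood out because the other 3 were so close.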

How the results depend on the processing

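The 30 gastrocnemius calls became 57 with DESeq2 (all 30 shared), 37 with no count filter, 22 with the compared groups alone (20 shared) and 0 with the genes near Tgfbr1 and Acvr1b and on scaffolds left out, and ran from 21 to 44 without 1 library. The 9 soleus calls became 19 with DESeq2 and 17 with no filter, and ran from 4 to 15 without 1 library. The 31 calls of Tgfbr1 KO against Acvr1b KO became 60 with DESeq2 and 13 with those groups alone. With the replicate number as a block, gastrocnemius gave 25 calls (24 shared); Vash2, Klf15, Mapk1ip1 and Cox11 were lost (adjusted p 0.0642, 0.0509, 0.0507 and 0.0604). Same-numbered libraries correlated at -0.0862, -0.0237, 0.029 and 0.3, so the numbers were read as names only. Without control 1 and Tgfbr1 KO 1 together, 40 genes were called (24 shared). The median of the glucocorticoid-responsive list stayed between -0.504 and -0.269, a check chosen after seeing the data.

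Small log2 changes changed sign, and the cause was not tested. Without 1 library, Tgfbr1 ran from -0.0527 to 0.218 (negative without control 2, -0.0356, or control 4) and Tgfbr2 from -0.0331 to 0.0961 (-0.0102 without control 2, -0.0097 without Tgfbr1 KO 1). Inhba ran from -0.0881 to 0.312 (-0.00624 without Tgfbr1 KO 3) and Smad7 from -0.117 to 0.0873 (0.0197 and 0.00308 without Tgfbr1 KO 2 or 3). Myh1 ran from -0.144 to 0.0493 (0.0112 and 0.0173 without control 1 or 2) and Myh4 from -0.141 to 0.0259. Without control 1 and Tgfbr1 KO 1 together, Myh2, Myh1 and Myh4 were at 0.0301, 0.0974 and 0.0165.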

Other observations

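Acute-phase genes were chosen for this paragraph after their values were seen. Orm3, which encodes an orosomucoid, a lipocalin secreted mainly by liver in inflammation, was the lowest gene of chromosome 4 outside the repeat block. It measured 0.917, 1.56, 6.26 and 1.05 CPM in controls and 0.122, 0.115, 0.143 and 0.0673 CPM in Tgfbr1 KO gastrocnemius, with no overlap (log2 difference -4.44, edgeR, Benjamini-Hochberg adjusted p = 0.252). Its neighbour Orm1, a close copy that can share its reads, measured 0.545, 0.68, 1.76 and 0.466 CPM against 0, 0.211, 0.429 and 0 CPM, and control 3 was the highest library for both. In soleus Orm1 did not show this order, at 0.113 to 0.861 CPM in controls and 0.554 to 1.31 CPM in Tgfbr1 KO.

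Genes of the neuromuscular junction and of regrowth varied singly. Musk, the kinase that organises the junction, lies on chromosome 4 as well, 10.9 Mb from the Tgfbr1 start. Musk measured 40.4, 41.4, 54.6 and 45.2 CPM in controls and 25, 32.9, 31.2 and 30.8 CPM in Tgfbr1 KO (log2 difference -0.60, edgeR, Benjamini-Hochberg adjusted p = 0.649). Actc1, the cardiac actin that muscle expresses during growth and repair, measured 135, 143, 74.2 and 182 CPM against 180, 264, 231 and 527 CPM, and the 2 groups met at control 4 and Tgfbr1 KO 1. Slc2a1, a glucose transporter, measured 4.84 to 6.42 CPM in controls and 3.65 to 4.51 CPM in knockouts, without overlap. Of 23 collagen and matrix genes 18 were above control, with a median log2 change of 0.13 and 0 passing the test.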
